A study of Homo sapiens with 4 samples.

Results

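The genes described here are 10 rows of the deposited count table, out of 60662: the blood lineage transcription factor genes GATA2, RUNX1, MYB, TAL1, LMO2, CBFB, ETV6 and FLI1, and BCR and ABL1, the 2 genes joined in the fusion of chronic myeloid leukaemia. They were chosen by name, and all 10 were found in the table. HAP1, the cells used, is an adherent line with close to a single chromosome set that descends from KBM-7, a chronic myeloid leukaemia line. MATR3, which encodes the nuclear RNA-binding and DNA-binding protein matrin 3, was the targeted gene. Of the 4 libraries, 2 came from purchased HAP1 clones labelled MATR3 knockout (KO), 1 each from clone 1 and clone 5, and 2 came from the wild-type (WT) control, clone 4, called WT A and WT B here. All were grown in the same medium with no treatment, and each KO clone is 1 library, so the KO spread is a spread between clones while the WT spread is within 1 clone. Total RNA was turned into cDNA, amplified by PCR and read in long reads on a MinION.

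GATA2, TAL1, LMO2, RUNX1, MYB and FLI1 are known as core regulators of blood stem and progenitor cells, where they work together on DNA and control one another. RUNX1 binds DNA with its partner CBFB, and LMO2 bridges TAL1 and GATA factors without touching DNA itself. In chronic myeloid leukaemia a translocation places most of the ABL1 tyrosine kinase gene behind the start of BCR, and the fusion transcript begins at the BCR promoter.

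The KO libraries held 3121759 counts for clone 1 and 4024026 for clone 5, against 3509906 for WT A and 5303199 for WT B. The KO columns carry another date tag than the WT columns, so genotype and date cannot be told apart, and 1 WT column carries the tag FACS while the other carries the tag test. Since no separate cultures are named for WT A and WT B, p-values measure only how far these libraries spread, and that spread may be technical. The main MATR3 gene model, ENSG00000015479.19, had 187 and 204 counts in KO clones 1 and 5, against 171 in WT A and 304 in WT B, a log2 fold change of 0.03 (edgeR quasi-likelihood, adjusted p = 0.974, SE 0.28). A second row, named MATR3, had 27 and 37 counts in KO clones 1 and 5, against 41 and 43 in WT A and B. Its log2 fold change was -0.15 (edgeR quasi-likelihood, adjusted p = 0.875, SE 0.35). Counts summed over a gene do not show a small edit, so neither row checks the KO labels.

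None of the members passed the test between KO and WT. Levels are given as CPM, counts scaled to a common library size with the trimmed mean of M values (TMM). In bulk RNA, fewer cells of a type and less RNA per cell cannot be told apart. A gene was tested if it cleared a low-count filter, and called at an edgeR quasi-likelihood p, Benjamini-Hochberg adjusted over all 10505 genes tested, under 0.05. Of the 10 members 7 were tested; LMO2, FLI1 and ABL1 had too few counts. Of the 7 tested, 0 were called, against 2.19% of all genes tested (1.58% higher and 0.609% lower). At an unadjusted p under 0.05, 3 of them were higher in KO, GATA2, RUNX1 and MYB, against 10.7% of all genes, and 0 were lower, against 5.66%. Both KO libraries lay above both WT libraries for GATA2, RUNX1, MYB and CBFB, 4 of 7, against 25.0% of all genes, and below both for 0, against 22.8%. The median log2 fold change of the 7 was 0.51, against 0.0021 for all genes tested, and 6 of 7 were above 0, against 50.3%. RUNX1 and MYB cleared the filter, at 2.65 CPM, only through the KO libraries, so these shares and this median are not support for a shift of the members. DESeq2 also called 0 of the 7; it gave an adjusted p only for GATA2 and CBFB, and its unadjusted p was under 0.05 for GATA2 (0.0468) and MYB (0.0314).

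**Figure D1:**
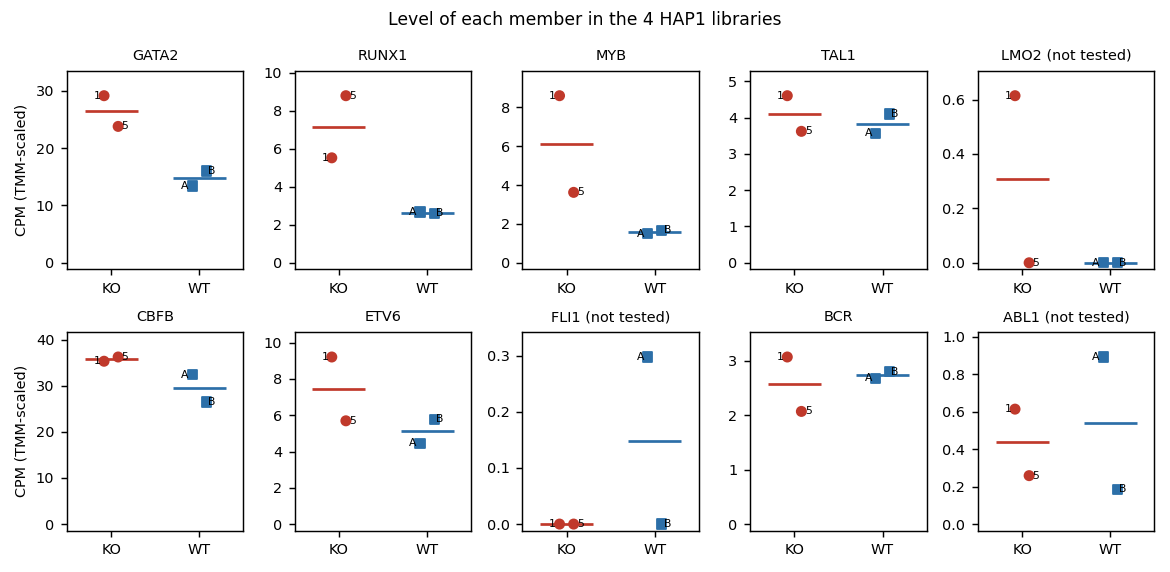
Level of each member in CPM (y axis, linear, a scale of its own for each gene) in the KO libraries (red circles, clones 1 and 5) and the WT libraries (blue squares, A and B); bars are group means of 2 libraries. GATA2, RUNX1, MYB and CBFB have both KO libraries above both WT libraries, while TAL1, ETV6, BCR, ABL1, LMO2 and FLI1 overlap.

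The bases before the start of 3 members, GATA2, RUNX1 and MYB, are shown because these had the lowest p, and those of BCR because the fusion transcript starts there. Each is the 250 bases before a start listed by RefSeq (GRCh38.p14), written from 5′ to 3′ on the gene's strand. Capitals mark matches, on either strand, to 5 short motifs bound by the families the members belong to: GATAA for GATA factors, CANNTG (the E-box) for TAL1 and its partners, TGTGGT for RUNX, CCGGAA for ETS factors such as FLI1 and ETV6, and AACTG for MYB. RefSeq lists 2 starts for GATA2, chr3:128493202-128493451, minus strand, and chr3:128488531-128488780, minus strand. The RUNX1 window is chr21:34888700-34888949, minus strand, the MYB window chr6:135181058-135181307, plus strand, and the BCR window chr22:23180259-23180508, plus strand.
GATA2, first start: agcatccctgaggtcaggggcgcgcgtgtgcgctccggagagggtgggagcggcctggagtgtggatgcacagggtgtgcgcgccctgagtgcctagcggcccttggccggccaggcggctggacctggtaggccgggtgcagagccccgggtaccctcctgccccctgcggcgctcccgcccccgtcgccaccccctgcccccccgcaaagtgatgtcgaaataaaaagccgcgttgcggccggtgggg
GATA2, second start: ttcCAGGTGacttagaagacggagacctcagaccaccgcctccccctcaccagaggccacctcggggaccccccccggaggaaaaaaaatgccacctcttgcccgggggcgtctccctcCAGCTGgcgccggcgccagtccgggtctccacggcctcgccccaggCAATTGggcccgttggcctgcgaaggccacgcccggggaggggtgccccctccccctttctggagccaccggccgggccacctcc
RUNX1: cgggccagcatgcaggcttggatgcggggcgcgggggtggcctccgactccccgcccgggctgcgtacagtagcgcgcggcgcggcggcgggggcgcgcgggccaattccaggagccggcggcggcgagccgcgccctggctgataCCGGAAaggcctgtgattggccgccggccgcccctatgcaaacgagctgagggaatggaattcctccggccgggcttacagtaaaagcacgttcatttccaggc
MYB: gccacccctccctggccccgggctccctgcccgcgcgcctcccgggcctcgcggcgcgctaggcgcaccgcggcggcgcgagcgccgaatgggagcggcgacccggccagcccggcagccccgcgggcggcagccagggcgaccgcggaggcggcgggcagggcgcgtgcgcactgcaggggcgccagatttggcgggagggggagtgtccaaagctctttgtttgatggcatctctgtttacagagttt
BCR: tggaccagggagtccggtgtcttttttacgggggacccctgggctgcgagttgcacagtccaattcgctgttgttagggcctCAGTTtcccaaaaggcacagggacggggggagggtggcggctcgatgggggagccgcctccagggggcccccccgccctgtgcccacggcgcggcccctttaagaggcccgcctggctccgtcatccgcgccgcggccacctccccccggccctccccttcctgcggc

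The second GATA2 window held 3 E-boxes, a motif found in 61.8% of 35116 RefSeq windows of this length. The RUNX1 window held 1 CCGGAA (14.5% of windows) and the BCR window 1 AACTG (34.1%). The MYB window and the first GATA2 window held none of the 5 motifs; GATAA occurs in 20.4% of all windows and TGTGGT in 11.0%. The starts used here for RUNX1, BCR and ABL1, and the second starts of GATA2 and TAL1, lie inside the longer gene spans of GENCODE. Which starts these cells use was not tested. Windows were found for 7 of the 10 members; of those not printed, the TAL1 windows held 2 GATAA, 1 E-box and 1 CCGGAA before the first start and 3 TGTGGT and 1 AACTG before the second, and the ABL1 and ETV6 windows held none. A match is a run of letters and not a shown binding site.

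MYB, the transcription factor that keeps blood progenitors dividing, had the largest fitted difference of the members. It lies at chr6:135181308-135219173 (hg38, plus strand). It had 28 and 14 counts in KO clones 1 and 5, against 5 in WT A and 9 in WT B. Its level was 6.11 ± 3.52 CPM in KO and 1.58 ± 0.135 CPM in WT (SD, n = 2 each), with both KO libraries above both WT libraries. The log2 fold change was 1.89 (SE 0.54, 95% interval 0.73 to 3.05, edgeR adjusted p = 0.0979), so the difference was not called. KO clone 1 carried most of it: MYB was 2.37 times as high in clone 1 as in clone 5 (95% exact counting interval 1.21 to 4.88). Without KO clone 5 the log2 fold change was 2.40 and was called (edgeR adjusted p = 0.0123), where 5.99% of all genes were called higher. Without KO clone 1 it was 1.17 (adjusted p = 0.654). With no count filter MYB was also called (adjusted p = 0.0363), against 1.45% of all genes. Such intervals cover counting error only, and PCR copies of 1 molecule are counted more than once. MYB-AS1, the antisense gene inside MYB, had 0 counts in all 4 libraries.

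The median of the genes around MYB on chromosome 6 was also higher in both KO clones than in WT. Within 5 Mb of MYB 28 other genes were tested, all 28 had a log2 fold change above 0, and 24 had both KO libraries above both WT libraries, against 25.0% of all genes. Of the 28, 7 were called higher and 0 lower, against 1.58% and 0.609% of all genes tested. The 7 were RPS12, a ribosomal protein, MAP3K5, a stress kinase, IL20RA, a cytokine receptor chain, NHSL1, ABRACL, HECA and CITED2, a transcriptional coregulator. IL20RA (7 and 13 counts in WT A and B) and CITED2 (4 and 4) cleared the low-count filter only through the KO libraries. HECA (4 and 15), and the uncalled MED23 (6 and 18), ARFGEF3 (7 and 24) and ECT2L (11 and 3), had a WT library below the filter level. They too needed the KO libraries to be tested. For all these genes, being tested and being higher in KO are linked, so they are not support for a shift. Over the 28 genes the median log2 fold change was 1.02, with medians of 1.04 for KO clone 1 and 1.09 for KO clone 5 over the WT mean. MYB itself stood 2.13 above the WT mean on the log2 scale in KO clone 1 and 0.98 in KO clone 5. The nearest tested genes were HBS1L, 78.3 kb before MYB, with a log2 fold change of 1.01 (edgeR adjusted p = 0.0907, SE 0.28), and AHI1, 64.2 kb after it, with 0.94 (edgeR adjusted p = 0.282, SE 0.42). How far the levels of this region account for the MYB value was not tested.

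Set against those neighbours within each library, the MYB share was highest in KO clone 1. MYB made up 0.113% of the counts of MYB and the 28 genes in KO clone 1 (95% exact interval 0.0753 to 0.164) and 0.0393% in KO clone 5 (0.0215 to 0.0659). In WT A the share was 0.0333% (0.0108 to 0.0777) and in WT B 0.0457% (0.0209 to 0.0868). The share in KO clone 5 lay between those of the WT libraries, and that in KO clone 1 above all the others, although its interval overlaps those of both WT libraries. RPS12 alone gave most of the neighbours' counts, from 12180 in WT A to 28993 in KO clone 5.

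**Figure D2:**
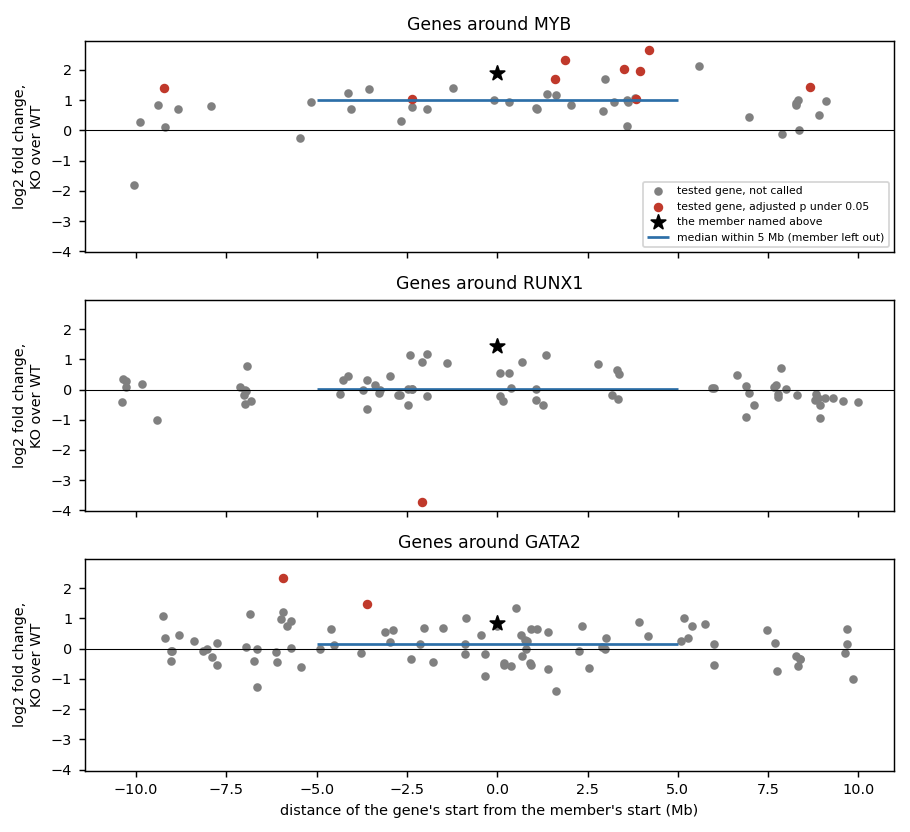
Log2 fold change, KO over WT (y axis), of the tested genes within 10 Mb of MYB, RUNX1 and GATA2, by the distance of each gene's start from that of the member (x axis, Mb); the star is the member, red points are genes called at an adjusted p under 0.05 and the blue line is the median within 5 Mb. The line lies at 1.02 around MYB, at 0.02 around RUNX1 and at 0.15 around GATA2.

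Around the other 9 members, in windows of 5 Mb on each side, the medians ran from -0.27 (FLI1) to 0.26 (LMO2). With windows of 2 Mb they ran more widely, from -0.56 over 5 genes (FLI1) to 0.49 over 14 genes (BCR), and with 10 Mb from -0.057 (ETV6) to 0.22 (LMO2). Around RUNX1 the median of 37 genes was 0.02, and 0 were called higher and 1 lower, against 1.58% and 0.609% of all genes tested. Of these 37, 8 had both KO libraries above both WT libraries and 6 both below, against 25.0% and 22.8% of all genes. The nearest tested genes to RUNX1 both had KO libraries above WT, with clone 5 the higher: RCAN1 had a log2 fold change of 0.89 (edgeR adjusted p = 0.287, SE 0.40) and SETD4 0.55 (edgeR adjusted p = 0.446, SE 0.34). Around GATA2 the median of 44 genes was 0.15, and 1 was called higher and 0 lower. Its nearest tested genes went the other way from GATA2, EEFSEC with -0.89 (edgeR adjusted p = 0.464, SE 0.57) and RPN1 with -0.49 (edgeR adjusted p = 0.468, SE 0.31). The nearest genes of RUNX1 and GATA2 were named after their values were seen.

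RUNX1, the blood transcription factor needed for the first blood stem cells to arise, was higher in both KO clones without being called. It lies at chr21:34787801-36004667 on the minus strand. Its counts were 18 and 34 in KO clones 1 and 5, against 9 in WT A and 14 in WT B. The level was 7.16 ± 2.31 CPM in KO and 2.64 ± 0.0474 CPM in WT (SD, n = 2 each). The groups do not overlap, and clone 5 was the higher one here, the reverse of MYB. The log2 fold change was 1.44 (SE 0.44, 95% interval 0.50 to 2.38, edgeR adjusted p = 0.112). Without KO clone 5 it was 1.05 and without KO clone 1 1.73, and it was not called in either case.

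CBFB, the partner that lets RUNX1 hold DNA, lies at chr16:67028984-67101058 and was much alike in the 4 libraries. It had 115 and 140 counts in KO clones 1 and 5, against 109 and 142 in WT A and B. That was 35.8 ± 0.651 CPM in KO and 29.5 ± 4.21 CPM in WT (SD, n = 2 each), with the lowest KO library just above the highest WT library. Fitted over all genes, CBFB had a log2 fold change of 0.29 (SE 0.29, 95% interval -0.34 to 0.91, edgeR adjusted p = 0.670). The authors' deposited table gives CBFB a log2 fold change of 0.28 and an adjusted p of 0.849.

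GATA2, a zinc finger factor of stem and progenitor cells and of the megakaryocyte and mast cell lines, had the second largest count of the members. It lies at chr3:128479427-128493201 on the minus strand. It had 95 and 92 counts in KO clones 1 and 5, against 45 in WT A and 86 in WT B. Scaled to depth this was 29.2 and 23.8 CPM in KO clones 1 and 5, against 13.4 and 16.0 CPM in WT A and B, with no overlap. GATA2 had a fitted log2 fold change of 0.84 (SE 0.30, 95% interval 0.19 to 1.48, edgeR adjusted p = 0.177). Clone 1 stood at 1.23 times clone 5, with a counting interval of 0.910 to 1.65 that includes 1. In the authors' deposited table GATA2 has a log2 fold change of 0.84 and an adjusted p of 0.482. GATA2-AS1, on the opposite strand, shares 78 exonic bases with GATA2. It had 52 and 56 counts in KO clones 1 and 5, against 25 and 55 in WT A and B, a log2 fold change of 0.76 (edgeR adjusted p = 0.266, SE 0.33). The sources used here do not say whether counting used strand, and reads of the shared bases cannot be told apart. GATA2-AS1 was named after its values were seen.

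TAL1, the helix-loop-helix factor that binds E-boxes beside GATA factors, lies at chr1:47216290-47232225 on the minus strand. It had 15 and 14 counts in KO clones 1 and 5, against 12 and 22 in WT A and B. A long noncoding gene on the opposite strand shares 845 exonic bases with TAL1. Reads of these bases cannot be told apart if counting did not use strand. At 4.11 ± 0.695 CPM in KO and 3.84 ± 0.376 CPM in WT (SD, n = 2 each) the groups overlapped. The log2 fold change was 0.08 (edgeR adjusted p = 0.956, SE 0.43), with a 95% interval of -0.85 to 1.01, which on the linear scale runs from 0.554 to 2.02 times the WT level. LMO2, the bridging protein of the same complex, at chr11:33858576-33892076, had 2 and 0 counts in KO clones 1 and 5, against 0 in both WT libraries. With 0 counts a level of up to 0.776 CPM in KO clone 5, 0.892 CPM in WT A and 0.559 CPM in WT B is allowed, so its absence is not shown.

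ETV6, an ETS family repressor needed in adult blood stem cells, lies at chr12:11649674-11895377. It had 30 and 22 counts in KO clones 1 and 5, against 15 in WT A and 31 in WT B. Its level was 7.45 ± 2.49 CPM in KO and 5.12 ± 0.932 CPM in WT (SD, n = 2 each), and KO clone 5, at 5.69 CPM, lay just below WT B, at 5.78 CPM. ETV6 had a fitted log2 fold change of 0.51 (SE 0.40, 95% interval -0.35 to 1.36, edgeR adjusted p = 0.560). FLI1, an ETS family activator of blood and vessel genes at chr11:128686535-128813267, had 0 counts in both KO clones, which allows up to 0.921 CPM in clone 1 and 0.776 CPM in clone 5, against 1 count in WT A and 0 in WT B.

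BCR, a GTPase regulator whose promoter and first exons head the fusion, lies at chr22:23179704-23318037. It had 10 and 8 counts in KO clones 1 and 5, against 9 and 15 in WT A and B. The level was 2.57 ± 0.707 CPM in KO and 2.74 ± 0.0844 CPM in WT (SD, n = 2 each), and KO clone 1 stood above both WT libraries while KO clone 5 stood below both. BCR had a fitted log2 fold change of -0.11 (SE 0.50, 95% interval -1.19 to 0.97, edgeR adjusted p = 0.945). The BCR pseudogene BCRP8 inside its span had 0 counts in all 4 libraries.

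ABL1, a tyrosine kinase gene at chr9:130713043-130887675, had 2 and 1 counts in KO clones 1 and 5, against 3 in WT A and 1 in WT B. These 7 counts were too few to test; the ratio of KO to WT was 0.919, with a 95% exact counting interval of 0.135 to 5.43. Within a library ABL1 was 16.7% of the ABL1 and BCR counts in KO clone 1 (95% exact interval 2.09 to 48.4) and 11.1% in KO clone 5 (0.281 to 48.2). It was 25.0% in WT A (5.49 to 57.2) and 6.25% in WT B (0.158 to 30.2). The log2 ratio of ABL1 to BCR averaged -2.66 in KO and -2.75 in WT, a difference of 0.08 (exact permutation test, two-sided, p = 1.00, where the smallest p that 2 libraries against 2 can give is 0.333). Counts are per gene, so reads of a fused and of an unfused transcript cannot be told apart in them, and the sources used here do not say how reads that align to both genes were counted.

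The genes around BCR and ABL1 gave 0 calls. The median log2 fold change was 0.04 over 52 genes within 5 Mb of BCR and -0.03 over 92 genes within 5 Mb of ABL1. Of these genes 0 were called in either direction, against 2.19% of all genes tested. Within 2 Mb the median was 0.49 over 14 genes around BCR and 0.03 over 38 genes around ABL1. Of the 14, 6 had both KO libraries above both WT libraries, against 25.0% of all genes tested. Both lay below for 3, against 22.8%. Around ABL1 4 of the 38 had both above and 10 both below. The tested genes on either side of BCR were PPM1F, with a log2 fold change of 0.46 (edgeR adjusted p = 0.576, SE 0.38), and ZNF70, with 0.77 (edgeR adjusted p = 0.220, SE 0.30). Those beside ABL1 were EXOSC2, with -0.19 (edgeR adjusted p = 0.779, SE 0.28), and LAMC3, with -1.10 (edgeR adjusted p = 0.435, SE 0.66). LAMC3 cleared the low-count filter only through the WT libraries. The translocation joins parts of different chromosomes, so neighbours in hg38 need not be neighbours in these cells.

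**Figure D3:**
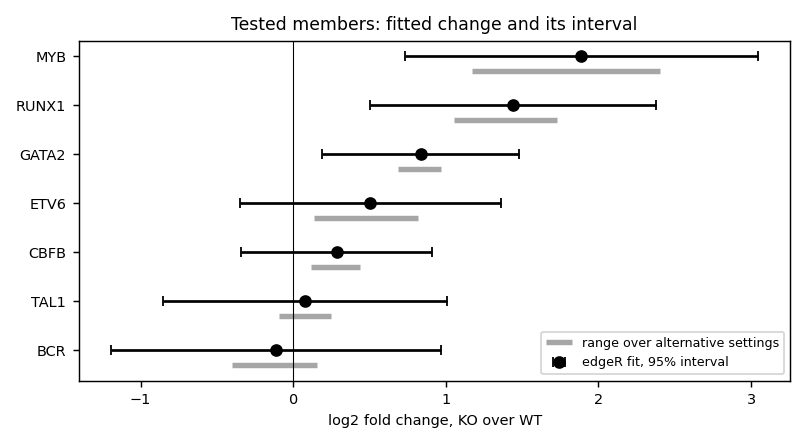
Fitted log2 fold change, KO over WT (x axis), of the 7 tested members, with 95% intervals (black bars), and the range of the fitted value over the alternative settings (grey bars). The intervals of MYB, RUNX1 and GATA2 lie above 0 before adjustment for the 10505 genes tested, and those of ETV6, CBFB, TAL1 and BCR include 0.

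Scaled by exonic gene length, the order of the mean levels over the 4 libraries was CBFB, at 7.01 CPM per kb, then GATA2 (4.19), ETV6 (0.869), MYB (0.700), TAL1 (0.697), RUNX1 (0.315), BCR (0.217), ABL1 (0.0698), LMO2 (0.0530) and FLI1 (0.00927). The ranges of the 4 libraries did not overlap between GATA2 and ETV6, between TAL1 and RUNX1, or between BCR and ABL1, and the other neighbours in the order overlapped. Whether read counts scale with length in this assay was not tested. Ordered by CPM without length, RUNX1 had rank 4, TAL1 rank 5 and MYB rank 6, with the other ranks the same. Among the 26477 genes with a count, CBFB stood at the 88.2 percentile of the mean level, GATA2 at the 84.0, BCR at the 61.0 and ABL1 at the 42.7.

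Over the 4 libraries some genes followed almost the same pattern as the 3 members with the lowest p. Likeness was measured as the Euclidean distance between log2 CPM values centred on each gene's mean, over 8492 or 8493 genes averaging 20 counts or more. The nearest to GATA2 were HIGD1A, at a distance of 0.024, and PLRG1, at 0.062. The nearest to RUNX1 were HCLS1 (0.17) and FZD10-AS1 (0.19), and to MYB they were UHRF2 (0.15) and TRIM9 (0.19). For scale, a gene with no difference between libraries would be at 0.87 from GATA2, 1.33 from RUNX1 and 1.75 from MYB. Picking the nearest of 8492 or 8493 genes over only 4 libraries can give close matches by selection alone. The distances are therefore no sign of shared regulation, which was not tested.

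Most other blood cell markers were at or near 0 counts. Of 30 blood cell markers 14 had 0 counts in all 4 libraries, among them PTPRC (CD45), CD34, CD33 and MPO. Over the whole count table only 26477 of 60662 genes had a count, so 0 counts were common among all genes. Of the 30 only ITGA2B, EPOR, HBA1 and HBZ had enough counts to be tested, and 0 were called, against 2.19% of all genes tested. HBA1, an alpha globin gene, had 34 and 81 counts in KO clones 1 and 5, against 82 and 125 in WT A and B, a log2 fold change of -0.59 (edgeR adjusted p = 0.421, SE 0.34). EPOR, the erythropoietin receptor, had -0.84 (edgeR adjusted p = 0.317, SE 0.40), HBZ -0.43 (SE 0.52) and ITGA2B -0.13 (SE 0.41). Summed over the 30 markers the level was 26.4 and 36.0 CPM in KO clones 1 and 5, against 45.8 and 45.7 CPM in WT A and B, so the groups did not overlap. HBA1 alone gave 10.4 and 21.0 CPM of this sum in KO clones 1 and 5, and 24.4 and 23.3 CPM in WT A and B. HBA1 and HBA2 are near-identical copies, between which reads could be split. Of the 4 tested markers, HBA1 and EPOR had both KO libraries below both WT libraries, against 22.8% of all genes tested, while ITGA2B and HBZ overlapped. The part of cell identity in the levels of GATA2, RUNX1 and MYB was not tested.

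Some markers of adherent epithelial and mesenchymal cells were present beside them. Of 15 such markers 8 were tested, with a median log2 fold change of 0.24. Of the 8, 1 was called higher and 1 lower, against 1.58% and 0.609% of all genes tested. KRT8, a simple-epithelium keratin, rose to 55.9 ± 23.0 CPM in KO, against 14.1 ± 4.00 CPM in WT (SD, n = 2 each), with a log2 fold change of 1.97 (edgeR adjusted p = 0.0143, SE 0.36). LAMB1, a laminin chain, fell to 4.12 ± 1.49 CPM in KO, against 15.0 ± 8.11 CPM in WT, a log2 fold change of -1.87 (edgeR adjusted p = 0.0441, SE 0.44). That call ended without WT B (-1.16, adjusted p = 0.326) and without KO clone 1 (-1.56, adjusted p = 0.142). KRT18 had 1.01 (edgeR adjusted p = 0.221, SE 0.40) and S100A4 -0.44 (edgeR adjusted p = 0.485, SE 0.29). Their summed level ran from 183 to 198 CPM in KO and from 143 to 182 CPM in WT. EPCAM, CDH1, KRT19 and THY1 had 32, 6, 1 and 4 counts over the 4 libraries, too few to be tested. COL1A2, COL4A1 and TJP1 had 0 counts in all 4 libraries.

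Among 32 other blood lineage transcription factors and paralogs of the members 11 were tested, and the median log2 fold change was 0.09. Of the 11, 1 was called higher and 0 lower, against 1.58% and 0.609% of all genes tested. LMO4, a paralog of LMO2, rose, with 142 and 115 counts in KO clones 1 and 5, against 54 and 61 in WT A and B. Its log2 fold change was 1.43 (edgeR adjusted p = 0.0371, SE 0.33); the call ended without KO clone 1 (1.14, adjusted p = 0.0729) and without WT B (1.16, adjusted p = 0.276). GATA3, a paralog of GATA2, had 7 and 3 counts in KO clones 1 and 5, against 11 and 32 in WT A and B, a log2 fold change of -1.73 (edgeR adjusted p = 0.148, SE 0.58). GATA3 too cleared the low-count filter only through 1 group, here the WT libraries. RUNX3, a paralog of RUNX1, had 89 and 28 counts in KO clones 1 and 5, against 36 and 51 in WT A and B, so the clones lay on opposite sides of WT, with a log2 fold change of 0.76 (edgeR adjusted p = 0.464, SE 0.48). CEBPB had 0.60 (edgeR adjusted p = 0.476, SE 0.39). GATA1, KLF1, NFE2, SPI1, CEBPA, CEBPE, GFI1B, IKZF1, ERG and PAX5 had 0 counts in all 4 libraries.

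Of 20 cofactors and binding partners of the members 17 were tested, with a median log2 fold change of 0.21. Of the 17, 0 were called higher or lower, against 2.19% of all genes tested. At an edgeR unadjusted p under 0.05, 2 cofactors were higher and 0 lower, against 10.7% and 5.66%. DESeq2 gave an adjusted p for 15 of the 17 and called 0. HDAC2, a histone deacetylase gene on chromosome 6, had a log2 fold change of 0.87 (edgeR adjusted p = 0.127, SE 0.27). TCF3, the E-protein that pairs with TAL1, had 0.77 (edgeR adjusted p = 0.282, SE 0.34), KDM1A, a histone demethylase, 0.47 (edgeR adjusted p = 0.462, SE 0.30) and HDAC1 0.44 (edgeR adjusted p = 0.450, SE 0.27). LDB1, which links LMO2 complexes, had 0.31, and EP300 and CREBBP, acetyltransferases that bind MYB, had 0.17 and 0.16.

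Of 33 adaptors, kinases and targets of ABL1 and its fusion 27 were tested, and the median log2 fold change was 0.08. Of the 27, 1 was called higher and 1 lower, against 1.58% and 0.609% of all genes tested. CCND2, cyclin D2, fell, with 7 and 4 counts in KO clones 1 and 5, against 35 and 44 in WT A and B. It cleared the low-count filter only through the WT libraries, so being tested and being lower in KO are linked. Its level was 1.59 ± 0.788 CPM in KO and 9.31 ± 1.56 CPM in WT (SD, n = 2 each), with a log2 fold change of -2.54 (edgeR adjusted p = 0.0165, SE 0.48). MAP2K1, the kinase MEK1, rose, with 2747 and 1502 counts in KO clones 1 and 5, against 365 and 1327 in WT A and B, a log2 fold change of 1.79 (edgeR adjusted p = 0.0369, SE 0.40). The MAP2K1 call rested on single libraries and ended without KO clone 1 (1.12, adjusted p = 0.596), without KO clone 5 (2.23, adjusted p = 0.205) and without WT A (1.32, adjusted p = 0.119). STAT5B, a transcription factor downstream of the fusion kinase, had 0.97 (edgeR adjusted p = 0.177, SE 0.35). MYC had -0.0024 (88 and 78 counts in KO clones 1 and 5, against 70 and 140 in WT A and B) and BCL2L1 0.08. ABL2, the paralog of ABL1, had 21 and 20 counts in KO clones 1 and 5, against 24 and 52 in WT A and B, and a log2 fold change of -0.56.

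**Figure D4:**
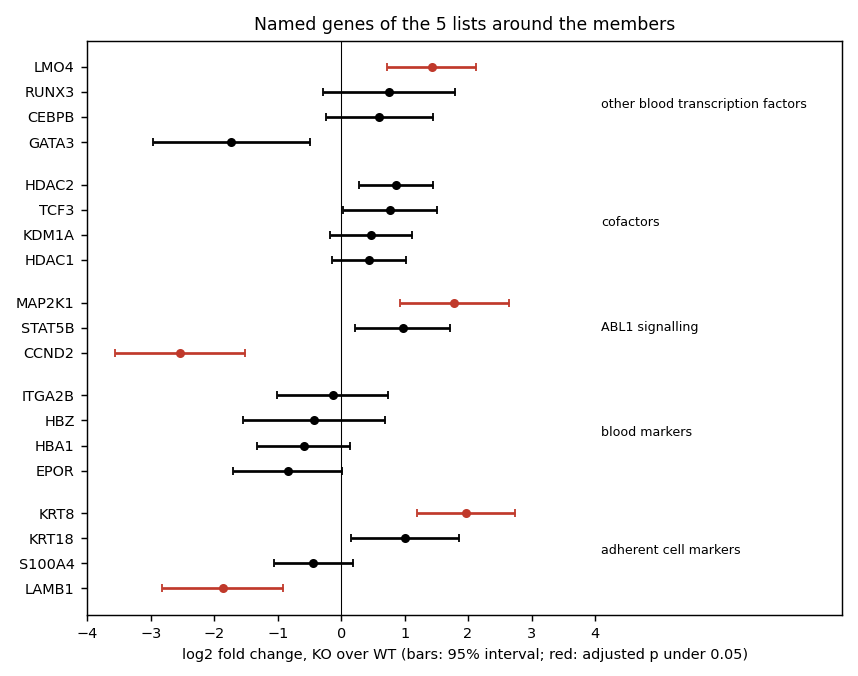
Log2 fold change, KO over WT (x axis), with 95% intervals, of the genes named from the 5 lists around the members; red marks an edgeR adjusted p under 0.05. LMO4, MAP2K1 and KRT8 lie above 0 and CCND2 and LAMB1 below 0 among the called genes, while no cofactor and no blood marker was called.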

How the data were processed

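Raw read counts, as deposited, were given for 60662 genes in 4 libraries. The submitters' processing notes name hg38 and, as tools, Subread, SAMtools, minimap2, DESeq2 1.22.2 and DESeq. Settings, annotation and strand use: not given in the sources used here. Another table deposited by the authors holds a normalised signal, the counts over 1 size factor per library (0.934 for KO clone 1, 1.09 for KO clone 5, 0.938 for WT A and 1.54 for WT B). The authors' table of comparisons holds, per the file headers, p-values, log2 fold changes, a Wald score and a mean signal for 6479 genes; GATA2 and CBFB are the 2 members in it, with the same sign as in the fit made here. Its Wald score was not used.

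KO columns carry the clone numbers of the labels. WT columns, matched by the product number in their names, have no replicate number and were called A and B. The number of unused count columns was 0. Counts were fitted with edgeR 4.0.16 (R 4.3.3): TMM scaling, filterByExpr at a minimum count of 10 and a minimum total of 15, and a two-sided F test from a robust quasi-likelihood fit over 10505 genes, with Benjamini-Hochberg adjustment and a threshold of 0.05. Dividing the log2 fold change by the root of F gave its SE. The biological coefficient of variation was 0.210. CPM used TMM-scaled sizes, log2 CPM a prior count of 2, and a count of 0 was read as up to 3 counts. The fit was checked on simulated data. Exact tests used scipy 1.17.1. The alternatives used DESeq2 1.42.0 and limma 3.58.1.

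Positions and exonic lengths came from GENCODE 44 on hg38, which placed 41350 of the 60662 genes. The 5 lists beside the members held 130 entries. The genes named were the members, each list's called genes and its 4 tested genes with the lowest p, the nearest tested genes of MYB, BCR and ABL1, and 2 genes each most like GATA2, RUNX1 and MYB; any other was chosen after its values were seen. Some genes that these rules name are not reported here. Members, lists and rules were chosen with earlier results of these data known.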

Additional observations from a re-analysis of the deposited data

How the results depend on the processing

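All tested members kept their side of the threshold and the sign of their log2 fold change under the settings tried (DESeq2, limma-voom, each library left out, no count filter, only genes averaging 50 or more counts, mitochondrial genes removed, and RLE, upper-quartile or no scaling), with these exceptions. MYB was called with no count filter and without KO clone 5, as given above, so 1 member was then called higher, and 0 to 1 over the libraries left out. TAL1 ran from -0.092 without KO clone 1 to 0.25 without KO clone 5, and BCR from -0.40 without KO clone 1 to 0.16 without KO clone 5. Over its 12 settings GATA2 had 0.68 to 0.97, and over 10 settings RUNX1 had 1.05 to 1.73 and MYB 1.17 to 2.40. RUNX1, MYB, TAL1, ETV6 and BCR have no value with 50 or more counts on average and no adjusted p with DESeq2. With a library left out, 1 group has 1 library, and the spread in the fit comes from the other group alone.

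Over all genes 166 were called higher and 64 lower; the counts were 20 and 11 with no scaling, 385 and 183 with no count filter, 71 and 12 with 50 or more counts on average, and lower 24 with DESeq2 and 41 with limma-voom. Leaving out single libraries gave 91 to 674 higher and 42 to 361 lower. Of the other transcription factors 0 were higher with no scaling and with 50 or more counts on average, and 0 to 2 over the libraries left out; of cofactors 0 to 1 were higher there. In the ABL1 signalling list 0 were higher or lower with no scaling, with 50 or more counts on average and with DESeq2, 0 were higher with limma-voom, and 0 to 1 were higher over the libraries left out. Of blood markers 0 to 1 were lower there. Of adherent cell markers 0 were higher or lower with no scaling, 0 were lower with 50 or more counts on average, DESeq2 and limma-voom, and 0 to 1 were lower over the libraries left out. CCND2 and LAMB1, the lower calls of these lists, were not among the genes averaging 50 or more counts and had no adjusted p with DESeq2, so there the 0 lower means not tested. With no scaling the calls of LMO4, MAP2K1, CCND2, KRT8 and LAMB1 all ended (adjusted p 0.118, 0.148, 0.0691, 0.0651 and 0.156). The cause of the other shifts was not tested.

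The ABL1 to BCR difference ran from -1.08 to 1.25 on the log2 scale over the libraries left out, so its sign rests on single counts. With windows of 2 and 10 Mb the median around MYB was 1.01 and 0.93. No paired analysis was possible because the WT columns carry no replicate number and the KO numbers are clone numbers. Depth is a limit for LMO2, FLI1 and ABL1, which had 2, 1 and 7 counts over 4 libraries.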

Other observations

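Some genes of the lists had too few counts to be tested. Among the other transcription factors, the cofactors and the ABL1 signalling genes, 16 such genes had a count. Of the 16, 4 had both KO libraries above both WT libraries, 5 had both below and 7 overlapped. Among all genes tested the shares were 25.0% above and 22.8% below. The shares among untested genes were not computed, so these counts are only a description. Those named here were chosen after their values were seen. RUNX1T1, a corepressor gene known as a fusion partner of RUNX1, had 2 and 1 counts in KO clones 1 and 5, against 9 and 13 in WT A and B, a ratio of KO to WT of 0.167 (95% exact interval, 0.0320 to 0.556). ETS1, an ETS family factor of lymphoid cells, had 3 and 4 counts in KO clones 1 and 5, against 7 and 15 in WT A and B, a ratio of 0.390 (0.141 to 0.945). LMO1, a paralog of LMO2, had 1 and 2 counts in KO clones 1 and 5, against 6 and 6 in WT A and B, a ratio of 0.306 (0.0555 to 1.13). EBF1, a B cell factor, had 2 and 0 counts in KO clones 1 and 5, against 5 and 6 in WT A and B, and the ratio was 0.223 (0.0240 to 1.02). GFI1, a repressor of blood stem cells, had 6 and 3 counts in KO clones 1 and 5, against 6 and 6 in WT A and B. Its groups overlapped in CPM, with a ratio of 0.919 (0.342 to 2.38). ELF1, an ETS family factor, had both KO libraries above both WT libraries in CPM, as did the genes named after it. Its counts were 10 and 8 in KO clones 1 and 5, against 3 and 10 in WT A and B, a ratio of 1.70 (0.786 to 3.77). SHC1, an adaptor of tyrosine kinases, had 8 and 10 counts in KO clones 1 and 5, against 3 and 8 in WT A and B, a ratio of 2.0 (0.897 to 4.70). LYL1, a paralog of TAL1, had 2 and 2 counts in KO clones 1 and 5, against 0 and 1 in WT A and B, and the ratio was 4.90 (0.485 to 241). These intervals cover counting error only and leave out the spread between clones.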
